A study of Mus musculus with 6 samples.

Results

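Capg and 9 further genes of actin filament capping and severing were followed in intestinal epithelial cell preparations from mice with or without an induced Cre directed at floxed Pggt1b, which encodes the beta chain of the enzyme geranylgeranyl transferase type I (GGTase-I). The group was chosen by the strong rise of Capg in the deficient arrays and then filled by protein family: Gsn, Scin, Flii and Svil of the gelsolin family, the capping protein subunits Capza1, Capza2 and Capzb, and Cfl1 and Dstn of the cofilin family. These are 10 of the 18193 genes that the array measures under a single symbol, and they hold 25 probe sets, each a group of short probes that reports one transcript region. All 10 were among the 8893 genes tested, which lay above 5 (log2) on at least 3 of the 6 arrays.

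Total RNA was hybridised to Affymetrix arrays, with 1 array per mouse, 3 mice per group and a mixed 129/SV and C57BL/6 background. Control and deficient mice all carried the floxed Pggt-Ibeta allele (gene symbol Pggt1b) and all received 1 mg tamoxifen per injection on 3 days in a row, with cells taken on day 6. The deficient mice were VillincreERT2 positive and the controls VillincreERT2 negative, so a Cre recombinase active in villin-expressing epithelium and switched on by tamoxifen was present in the deficient group alone, and effects of Cre and of the deletion cannot be told apart. The labels give no age, sex, gut segment or array batch.

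Actin filaments grow and shrink mainly at their barbed end. Capping protein, a heterodimer of an alpha and a beta subunit, closes that end. Gelsolin family proteins bind it under the control of calcium and phosphoinositides, and most of them also cut the filament. Cofilin and destrin cut and disassemble ageing filaments and are switched off when LIM kinases phosphorylate them. In the gut epithelium these proteins act in the brush border, at junctions and in moving or extruding cells.

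Before the members, the arrays themselves need describing. The 10 epithelial markers, among them Epcam, Cdh1 and Krt20, were all tested, with a mean level of 13.2 to 13.4 (log2) in controls and 13.4 to 13.7 in the deficient arrays, and 0 passed the limma test (2 were higher at an unadjusted p under 0.05). The Pggt1b probe set used read 9.30, 9.55 and 9.33 in controls and 9.75, 8.88 and 8.83 in the deficient arrays, so the groups overlapped and deficient replicate 1 lay above all controls. A fainter Pggt1b probe set was likewise highest there, at 6.51 against 5.72 to 6.26 in controls. Another read 8.20, 8.03 and 8.37 in controls and 8.31, 8.44 and 7.89 in the deficient arrays. There deficient replicate 1 lay within the control range. The last Pggt1b probe set lay below 5 on all arrays and was highest in deficient replicate 2, at 4.16. Whether these probe sets read the deleted part was not analysed here, so "deficient" means labelled so, deficient replicate 1 included, and each direction below rests on the labels. The control probe sets for Gapdh, which read its 5′ and 3′ ends and show how far the labelled RNA reaches, set 1 array of each group apart. The 5′ minus 3′ difference was -1.62, -4.11 and -1.03 (log2) in control replicates 1 to 3 and -1.24, 0.29 and -0.86 in deficient replicates 1 to 3. Beta-actin gave the same extremes, at -3.16 in control replicate 2 and -0.88 in deficient replicate 2. Member values that move with these arrays are also given without both.

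The upstream sequences of the genes are shown first because the Capg window lacked a motif that every other member window held. RefSeq windows on GRCm38.p6, from 250 bases before to 50 after a start site, matched 9 of the 10 members and 11 start sites. The GC box core GGGCGG (either strand, capitals below) was in 10 of the 11 windows, that is in all except that of Capg. Of 32851 windows of the same length, 35.7% held it. This takes no account of GC content, which ran from 52.0% (Scin) to 73.0% (Capza2) in member windows. The Capg window was at 58.0%, and the median of all windows was 52.7%. Several of the member windows are start sites of Gsn. Capg, gelsolin-like but without filament cutting activity, and Scin, its calcium-dependent filament-cutting relative, are printed 5′ to 3′ on the gene's strand. The Capg window is chr6:72549397-72549696 (plus strand) and the Scin window is chr12:40134179-40134478 (minus strand).
Capg: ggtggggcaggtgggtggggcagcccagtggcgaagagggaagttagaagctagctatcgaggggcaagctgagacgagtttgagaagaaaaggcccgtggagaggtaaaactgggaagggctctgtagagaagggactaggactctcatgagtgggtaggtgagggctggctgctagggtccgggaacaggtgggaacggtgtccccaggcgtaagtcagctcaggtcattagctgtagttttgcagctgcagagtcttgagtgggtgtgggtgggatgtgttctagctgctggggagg
Scin: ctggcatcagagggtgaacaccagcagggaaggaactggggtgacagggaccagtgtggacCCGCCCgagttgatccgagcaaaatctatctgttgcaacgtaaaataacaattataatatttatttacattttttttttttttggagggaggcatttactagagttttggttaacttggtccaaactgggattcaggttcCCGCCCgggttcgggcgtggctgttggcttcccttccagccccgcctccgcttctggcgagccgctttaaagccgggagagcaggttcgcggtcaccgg
No member window held a CArG box (the serum response factor motif, in 1.63% of all windows), TGANTCA (the AP-1 motif, 7.81%), GGAATG (the TEAD motif, 14.7%) or TATAAA (13.6%), on either strand. GGGCGG was therefore the one motif of these found in member windows, and a pair of its matches in the Cfl1 window share a base. These matches describe letters in the listed windows, and Capg may have start sites outside them.

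Capg had the widest difference between groups among the members. Its probe set 1450355_a_at read 6.72, 6.16 and 6.93 (log2) in control replicates 1 to 3 and 10.6, 10.4 and 9.02 in deficient replicates 1 to 3. The lowest deficient array thus lay above the highest control, and deficient replicate 3 was the nearest to the controls. The means were 6.60 ± 0.39 (SD, n = 3) and 9.98 ± 0.84 (SD, n = 3), a log2 difference of 3.38 ± 0.43 (SE) or 10.4-fold. This contrast chose the group, so the difference is a description and no test is given for it. The other Capg probe set lay below 5 on all 6 arrays, between 2.59 and 2.68 on 5 of them and at 4.14 in deficient replicate 1. Averaging both probe sets therefore gave a difference of 1.95.

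The Capg difference was 3.09 without deficient replicate 1 and 3.86 without deficient replicate 3, the extremes when 1 array was left out. Since its groups do not overlap, leaving out 1 array could not turn its direction. It was 2.96 without control replicate 2 and deficient replicate 2 together, and 3.00 with the Gapdh 5′ minus 3′ difference as a covariate. Capg also varied much among mice of one group. Its within-group SD of 0.66 was at percentile 91.6 of the 8893 genes tested, with deficient replicates 1 and 3 differing most.

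**Figure D1:**
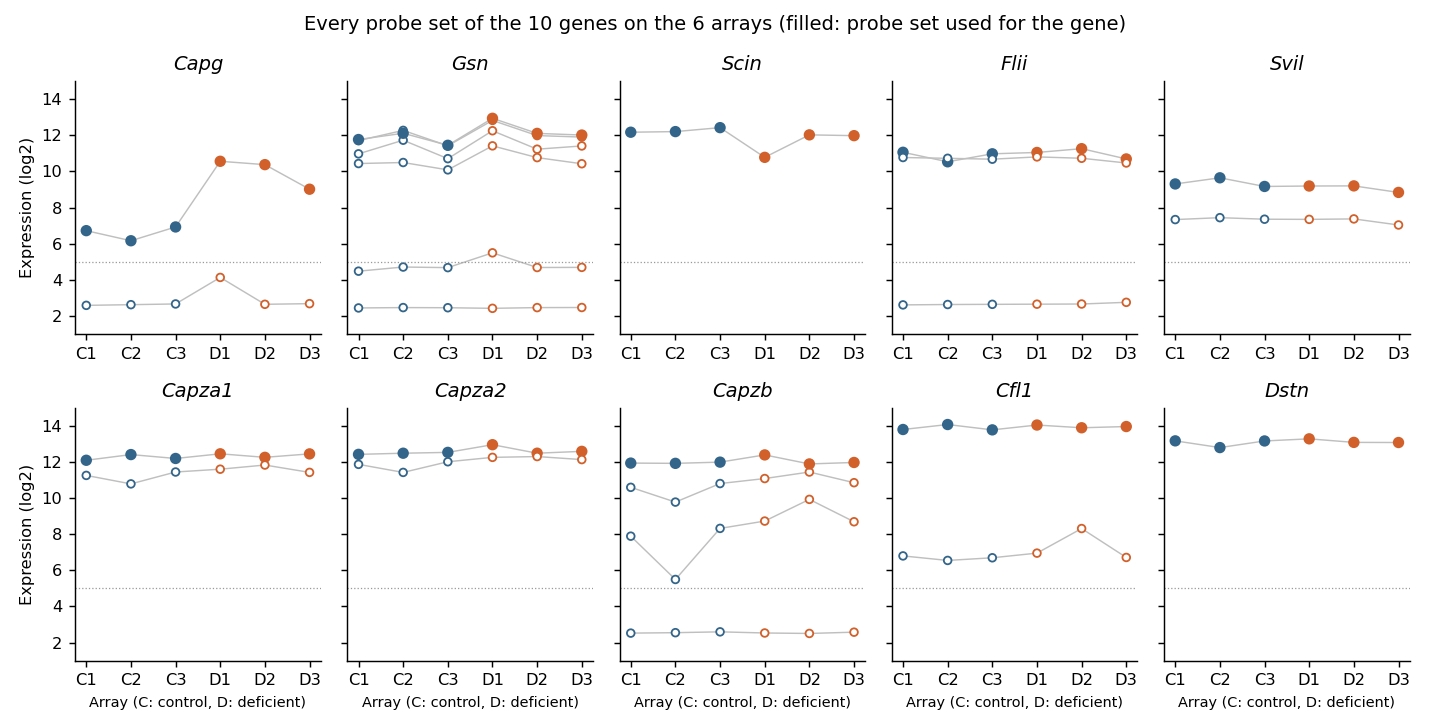
Expression (log2, vertical axis) of every probe set of the 10 genes on control arrays C1 to C3 (blue) and deficient arrays D1 to D3 (orange); filled points mark the probe set used for the gene, and the dotted line marks 5. Capg separates into 6.16 to 6.93 in controls and 9.02 to 10.6 in deficient arrays, while the used probe sets of the other genes stay close across arrays apart from deficient replicate 1 for Gsn and Scin.

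In the other 9 members no change passed the test. They were taken from the protein families named above, with earlier results of these data known. Of the 9, 0 had a limma adjusted p under 0.05 over all genes, where 2.09% of all genes tested did. An unadjusted p under 0.05 was likewise found in 0 of them. By mean 7 were higher and 2 lower, with a median log2 change of 0.13 against -0.04 over all genes tested. The 95% confidence intervals of the change, for the probe set used, reached no further than 1.29 upward (Gsn) and -1.49 downward (Scin). Other tested probe sets reached further upward, to 3.66 for Capzb and 1.61 for Cfl1. Larger changes are thus not bounded for every member. In preparations of mixed cells, fewer cells of a type and less RNA per cell cannot be told apart.

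Gsn encodes gelsolin, the founding member of the family, which cuts filaments and caps the new barbed ends. It read 11.8, 12.1 and 11.4 (log2) in controls and 12.9, 12.1 and 12.0 in the deficient arrays. Only deficient replicate 1 lay above all controls. The log2 change was 0.58 ± 0.30 (SE; limma adjusted p = 0.373), and 0.28 without deficient replicate 1. The 4 tested Gsn probe sets changed by 0.44 to 0.58, and deficient replicate 1 was the highest array in each. Without control replicate 2 and deficient replicate 2, or with the Gapdh covariate, the used probe set changed by 0.87 or 0.96, with no call in either fit. In these fits the 4 tested probe sets changed by 0.66 to 0.99 and by 0.74 to 1.10, further apart than with all arrays.

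Scin encodes scinderin (adseverin), a calcium-dependent severing protein. It read 12.2, 12.2 and 12.4 (log2) in controls and 10.8, 12.0 and 12.0 in the deficient arrays. All 3 deficient arrays lay below all controls, but deficient replicate 1 alone was far below. The log2 change was -0.67 ± 0.35 (SE; limma adjusted p = 0.367), and -0.26 without deficient replicate 1. Capg and Scin were the 2 of 10 members whose groups did not overlap, in opposite directions, where 25.7% of all genes tested had groups that did not overlap. Since Capg chose the group, nothing is read from this share. Deficient replicate 1 was thus the array with the highest Capg, the highest Gsn and the lowest Scin.

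Flii and Svil are large gelsolin-related proteins with roles outside filament cutting (Flii as a nuclear receptor coactivator, Svil at the membrane with myosin). Both were close between groups. Flii read 11.1, 10.5 and 11.0 (log2) in controls and 11.0, 11.3 and 10.7 in the deficient arrays, with control replicate 2 lowest and deficient replicate 2 highest. Its log2 change was 0.14 ± 0.23 (SE; limma adjusted p = 0.765), and it turned to -0.15 without both of these arrays. Svil read 9.31, 9.65 and 9.17 in controls and 9.19, 9.20 and 8.84 in the deficient arrays. Those ranges overlapped, and the log2 change of -0.30 ± 0.20 (SE) did not pass (limma adjusted p = 0.467). The other tested probe set changed by -0.13 for Svil, and for Flii it went the other way, at -0.06.

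The capping protein subunits were steady when read by the probe set with the highest signal. Capza1, an alpha subunit, read 12.1, 12.4 and 12.2 (log2) in controls and 12.4, 12.3 and 12.4 in the deficient arrays. Capza2, the other alpha subunit of non-germline tissue, read 12.4, 12.5 and 12.5 in controls and 12.9, 12.5 and 12.6 in the deficient arrays. Capzb, the beta subunit, read 11.9, 11.9 and 12.0 in controls and 12.4, 11.9 and 12.0 in the deficient arrays. Deficient replicate 1 was the highest array for all 3 subunits, level with deficient replicate 3 for Capza1, and the groups overlapped for each. The log2 changes were 0.15 for Capza1, 0.20 for Capza2 and 0.13 for Capzb, with limma adjusted p of 0.654, 0.590 and 0.726. Without deficient replicate 1 the change of Capza2 was 0.06 and that of Capzb -0.02. Without control replicate 2 and deficient replicate 2 the changes were 0.31 for Capza1, 0.30 for Capza2 and 0.22 for Capzb.

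Cfl1 and Dstn encode cofilin and destrin, which sever filaments and feed actin back to the monomer pool. By the probe set used, both were among the steadiest members. A fainter Cfl1 probe set, described below, changed by 0.65. Cfl1 read 13.8, 14.1 and 13.8 (log2) in controls and 14.0, 13.9 and 14.0 in the deficient arrays. Dstn read 13.2, 12.8 and 13.2 in controls and 13.3, 13.1 and 13.1 in the deficient arrays. For Cfl1 all deficient arrays lay within the control range, and for Dstn deficient replicate 1 alone lay above it. The log2 changes were 0.08 ± 0.16 (SE) for Cfl1 and 0.10 ± 0.18 (SE) for Dstn, with limma adjusted p of 0.811 and 0.783. Without control replicate 2 and deficient replicate 2 they were 0.22 and 0.013. The 95% confidence intervals of these changes ended at 0.47 and 0.52 upward. The within-group SD of Cfl1, 0.13, was at percentile 10.1 of the genes tested and that of Dstn, 0.17, at percentile 20.6.

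Other probe sets of the capping protein and cofilin genes moved further, and they did so with control replicate 2 and deficient replicate 2. Of the 25 member probe sets, 20 were tested by themselves. In that fit 1.44% of 16281 probe sets passed at a limma adjusted p under 0.05, and among the 19 tested probe sets of the members other than Capg 0 passed, while 2 of Capzb had an unadjusted p under 0.05. Of the 20, 4 had all deficient arrays above all controls (1 of Capg, 1 of Capza2 and 2 of Capzb), where 10.5% of all probe sets tested did. The Capg probe set chose the group, and the remaining 3 are those described next.

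The clearest case was the Capzb probe set 1453960_a_at. It read 7.89, 5.49 and 8.32 (log2) in controls and 8.72, 9.92 and 8.69 in the deficient arrays, lowest in control replicate 2 and highest in deficient replicate 2. Its log2 change was 1.88 (limma adjusted p = 0.291), which became 0.60 without both arrays and 0.36 with the Gapdh covariate. The Capzb probe set 1417259_a_at changed by 0.73 with all arrays, by 0.27 without both and by 0.19 with the covariate. For comparison, the Capzb probe set used for the gene changed by 0.13, 0.22 and 0.20 in the same 3 fits. The readings of Capzb thus differed widely over all arrays and lay closer together once these arrays were set aside or the covariate was added.

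The same held for Capza1, Capza2 and Cfl1, but not for Gsn, whose probe sets moved further apart. The second probe set of Capza1 changed by 0.46 with all arrays and by 0.16 without control replicate 2 and deficient replicate 2. That of Capza2 changed by 0.46 and 0.25, and that of Cfl1, which read 8.31 in deficient replicate 2 and 6.55 to 6.95 elsewhere, by 0.65 and 0.09. Over the 10 pairs of probe sets of 1 member that lay above 5 on all arrays, control replicate 2 was at one end of the difference between probe sets in 10, and deficient replicate 2 at the opposite end in 8. For the Capzb pair with the widest spread the centred difference was -2.58 in control replicate 2 and 1.88 in deficient replicate 2, against -0.20 to 0.56 on the other 4 arrays. The Gapdh values move with these differences. The position of each probe set in its transcript was not analysed here, and the part of RNA length in them was not tested further.

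**Figure D2:**
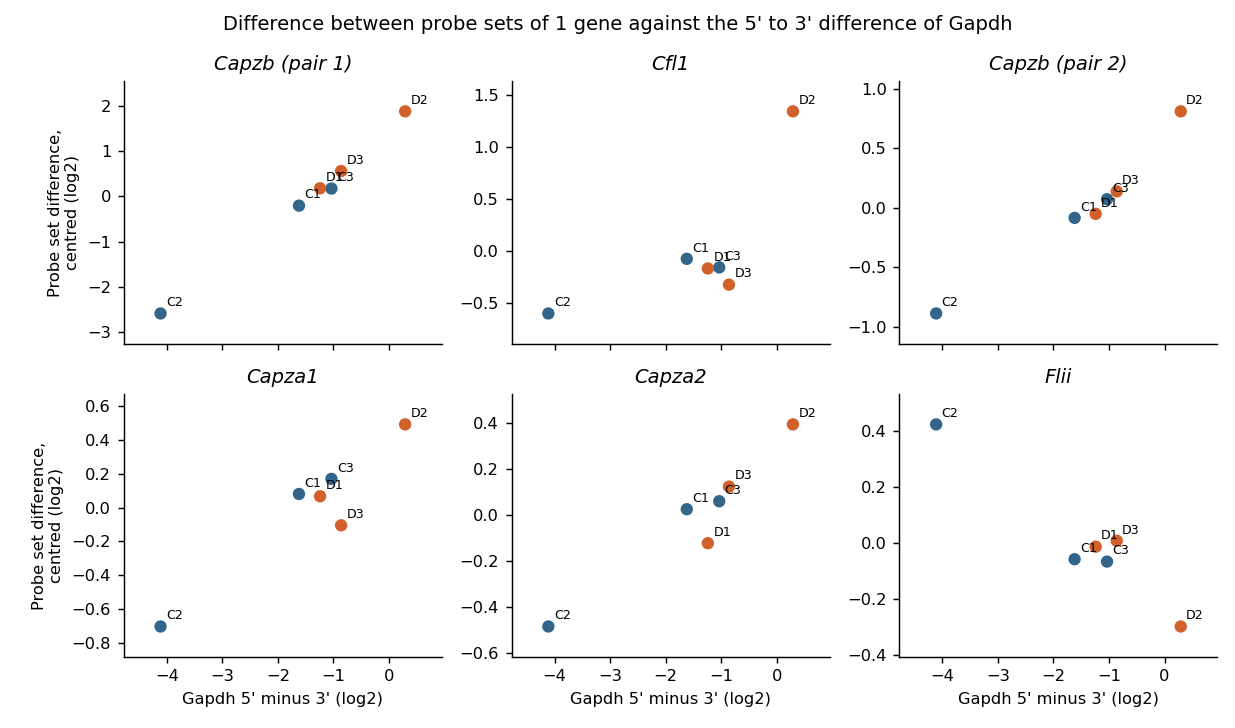
Difference between another probe set and the used probe set of the same gene (log2, centred on its mean over arrays, vertical axis) against the Gapdh 5′ minus 3′ difference (log2, horizontal axis) for the 6 pairs with the widest spread; control arrays are blue and deficient arrays orange. C2, at -4.11 on the horizontal axis, and D2, at 0.29, lie at opposite ends in all 6 panels, with the order turned for Flii, while the other 4 arrays cluster.

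The level of Capg was set beside markers of cells that such preparations can hold, because Capg is abundant in macrophages and dendritic cells. Of the 15 myeloid markers on the array, 10 were tested, and all 10 had lower means in the deficient arrays. Of these 4 fell (Fcer1g, Tyrobp, Adgre1 and Itgax), 0 rose with limma (0 also at an unadjusted p under 0.05), where 1.98% of all genes tested were called lower and 0.112% higher, and Itgam, Cd68 and Cx3cr1 lay at or below 5 on all arrays. The tested myeloid markers not called had log2 changes of -1.68 (S100a9) to -0.31 (Cd14), with Csf1r at -0.64 and Lyz2 at -0.41. The mean level of the myeloid list was 6.10 to 7.23 (log2) in controls and 5.29 to 5.87 in the deficient arrays. Whether myeloid cells carry the Capg signal was not tested. The T cell and intraepithelial lymphocyte list was lower more strongly, from 8.03 to 8.14 in controls to 4.73 to 5.93 in the deficient arrays. Of its 11 tested markers 9 were called lower. Of the called markers, Itgax and the lymphocyte genes Cd3d, Cd7 and Il2rb lay at or below 5 on all deficient arrays, so they could enter the test through the controls alone. Among markers above 5 on at least 1 array of each group, 3 of 9 myeloid and 6 of 8 lymphocyte markers were called lower, where 1.17% of such genes were.

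Other cell types gave smaller shifts in list mean. The stromal, muscle and endothelial list of 15, of which 7 lay at or below 5 on all arrays, had mean levels of 5.04 to 5.62 in controls and 4.62 to 4.93 in the deficient arrays. The tuft list of 9, of which 5 lay there, overlapped between groups at 3.22 to 4.41 and 3.29 to 4.17. Mean levels also overlapped for the goblet (12.0 to 12.5 and 12.4 to 12.6), Paneth (8.82 to 10.03 and 9.19 to 10.4), enteroendocrine (9.10 to 10.2 and 8.57 to 10.2), stem and progenitor (6.19 to 7.98 and 7.53 to 8.07) and enterocyte lists (14.0 to 14.6 and 13.9 to 14.3). The B and plasma cell list, with 4 of 7 members at or below 5 on all arrays, was at 5.42 to 5.66 and 4.93 to 5.22. Of the 47 tested markers of these 8 lists, 0 were called with limma in either direction. At an unadjusted p under 0.05, 2 were higher and 7 lower. Of the lower ones, 4 were on the stromal, muscle and endothelial list. Its 7 tested genes had a median log2 change of -1.07, and 3 of them had a higher mean. Which cells carry the Capg signal was not measured.

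**Figure D3:**
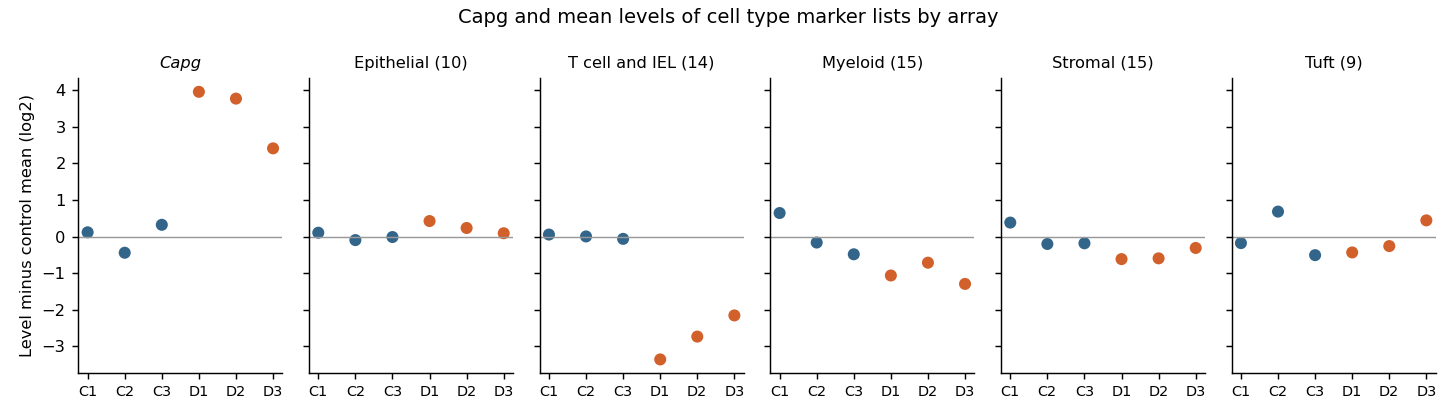
Level relative to the control mean (log2, vertical axis) of Capg and of the mean of 5 marker lists, with the number of genes on the array in brackets, on control arrays C1 to C3 (blue) and deficient arrays D1 to D3 (orange); IEL stands for intraepithelial lymphocytes. Capg is higher on all 3 deficient arrays while the lymphocyte and myeloid lists lie lower there and the epithelial list stays near 0.

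The wider machinery around the members gave few calls. Lists of 70 genes for related filament binders, cofilin regulators, capping protein regulators, monomer binders and filament nucleators had 63 genes on the array and 48 tested. Of the 48, 0 rose and 4 fell with limma (3 and 5 at an unadjusted p under 0.05), where 0.112% of all genes tested were called higher and 1.98% lower. By mean 24 were higher and 24 lower, with a median log2 change of 0.01. Was, Evl and Rcsd1 lay below 5 on all deficient arrays and entered the test through the controls alone, so they had to be lower to be tested and the count of 4 supports nothing. Of the 45 tested genes above 5 on at least 1 array of each group, 1 fell, Coro1a, where 1.17% of such genes did. Without control replicate 2 and deficient replicate 2, Was alone passed, while the log2 changes were -2.63 for Coro1a, -3.09 for Evl and -1.54 for Rcsd1 (limma adjusted p = 0.0522, 0.0836 and 0.0936). With probe sets of a gene averaged, Evl and Rcsd1 were not tested and the other two passed. With a probe set lacking _a, _s and _x in its name preferred where the gene has one, Coro1a and Evl were not tested and the other two passed.

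The 4 genes that fell include some known chiefly from blood cells. Coro1a, a coronin that guides cofilin and Arp2/3 in leukocytes, fell 7.08-fold from 9.34 ± 0.28 (SD, n = 3) to 6.52 ± 0.24 (SD, n = 3) (limma adjusted p = 0.0016). Was, the blood-cell activator of Arp2/3, lay below 5 on all deficient arrays, so its fall of at least 1.41-fold is taken against that level (limma adjusted p = 0.0011), and it did not pass when values below 5 were raised to 5 (limma adjusted p = 0.183). Evl, an elongation factor of the Ena/VASP family, fell at least 5.27-fold, and Rcsd1, a capping protein binder also called CapZIP, at least 2.43-fold (limma adjusted p = 0.0035 and 0.0065). Coro1a passed in each of the 6 fits that left out 1 array. Was, Evl and Rcsd1 did so too, but those fits kept the genes let in by the controls. Their direction was fixed once they had passed the filter, so their p-values and passes support nothing. Rcsd1 did not pass with the Gapdh covariate (-1.45, limma adjusted p = 0.0545). All 4 genes fell on the arrays where the lymphocyte list was at 4.73 to 5.93 against 8.03 to 8.14. The part of that list in their fall was not tested.

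Among the related filament binders 0 of 9 tested genes were called with limma (0 also at an unadjusted p under 0.05). The pair with the smallest p were Tmod3, which caps the pointed end, and Add3, an adducin that caps the barbed end in the membrane skeleton. Tmod3 was at 0.70 (0.39 without control replicate 2, and 0.36 without deficient replicate 2 as well) and Add3 at -0.62 (-0.30 without control replicate 1), with limma adjusted p of 0.295 and 0.359. Among the monomer binders 0 of 6 were called with limma (1 at an unadjusted p under 0.05, namely Tmsb10). The thymosins Tmsb10 and Tmsb4x, which hold actin monomers in reserve, were at 0.82 and 0.37 (limma adjusted p = 0.149 and 0.353). Tmsb10 read 14.1, 14.5 and 14.4 (log2) in controls and 15.5, 15.1 and 14.9 in the deficient arrays, so its groups did not overlap. The groups of Tmsb4x and Tmod3 did not overlap either, where 25.7% of all genes tested had such groups.

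Cap1 is added here after its values were seen. Cap1, which works with cofilin to recycle monomers, read 8.59, 8.42 and 9.35 (log2) in controls and 10.1, 9.62 and 10.1 in the deficient arrays, a change of 1.16 ± 0.29 (SE; limma adjusted p = 0.127). Its groups did not overlap, as was so for 25.7% of all genes tested. Of 12 tested genes on a list of serum response factor and its targets, 2 fell with limma, Cnn2 and Srf itself, and 0 rose (4 lower and 1 higher at an unadjusted p under 0.05), where 1.98% of all genes tested were called lower and 0.112% higher.

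The 5 genes with the profile most like that of Capg were found by the root mean square difference between profiles over the 6 arrays, each centred on its own mean, among all tested genes outside the group. This uses the arrays that chose Capg, so the values are a description. Paqr8, a membrane progestin receptor, was nearest with a difference of 0.44 (log2) and read 5.03, 4.77 and 5.46 in controls and 9.43, 7.98 and 6.86 in the deficient arrays. S100a14, an S100 family protein, differed by 0.55 and read 7.29, 7.60 and 7.15 in controls and 11.0, 10.3 and 8.70 in the deficient arrays. Like Capg, each was lowest among the deficient arrays in replicate 3. Ripk3, the kinase of necroptosis, differed by 0.58 and read 6.23, 4.96 and 6.73 in controls and 8.61, 9.05 and 7.79 in the deficient arrays. Gch1, of tetrahydrobiopterin synthesis, differed by 0.60 and read 8.19, 8.49 and 9.24 in controls and 11.4, 11.3 and 10.1 in the deficient arrays. Btc, the EGF receptor ligand betacellulin, differed by 0.62 and read 4.86, 5.25 and 4.92 in controls and 8.69, 7.65 and 6.27 in the deficient arrays. In all 5 the groups did not overlap, where 25.7% of all genes tested had such groups. Deficient replicate 3 was the deficient array nearest the controls in each. Likeness to Capg, by which they were chosen, favours both traits, so nothing is read from them.

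**Figure D4:**
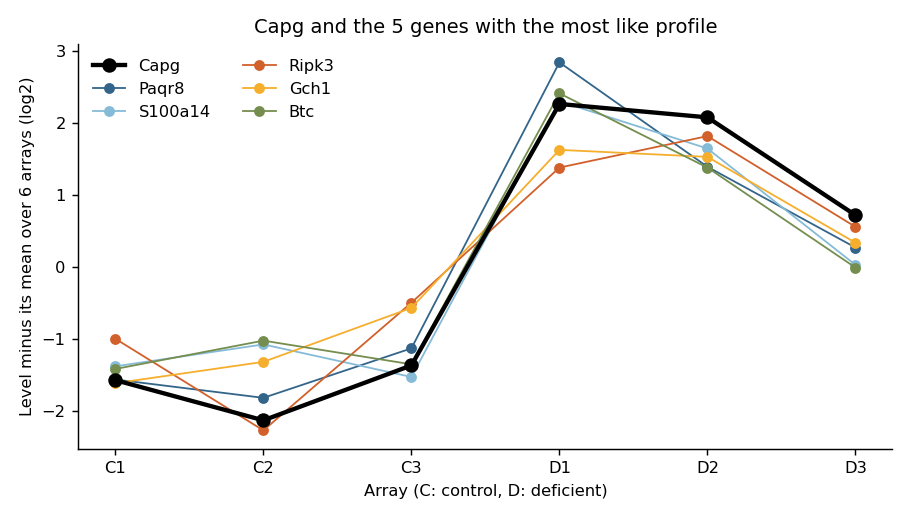
Level relative to the gene's mean over 6 arrays (log2, vertical axis) of Capg (black, thick line) and of the 5 genes with the smallest root mean square difference from it, by array (C1 to C3 control, D1 to D3 deficient; lines join values of 1 gene and imply no order). Each gene is lower on the controls, and D3 is the lowest deficient array for each.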

How the data were processed

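Each array has 1 deposited log2 value per probe set, normalized by the authors. Partek 6.5 and GCRMA are named in the submitters' processing notes, with no role for either. That the scale is log2 follows from the range of 0.42 to 16.4. Symbols came from the platform annotation: 34945 of 45101 probe sets, without the 64 control probe sets, had a single symbol. For each gene the probe set of highest mean over 6 arrays was taken, and genes above 5 on at least 3 arrays were tested. This level is a filter, not a measured background. Fold changes given as "at least" raise values below 5 to 5. Probe sets whose names hold _a, _s or _x can match several transcripts. They include those used for Capg, Capzb and Scin (_a), Svil (_s), and Gsn, Capza1 and Cfl1 (_x).

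The comparison used limma 3.58.1 (R 4.3.3) with lmFit and eBayes and group as the only term, and p-values were Benjamini-Hochberg adjusted over all genes, or over all probe sets for single probe sets, and a threshold of 0.05. The fit was tested on simulated data. The labels describe no batches beyond 1 array per mouse. The p-values thus rest on the spread between arrays, with variances moderated over all genes. That spread joins differences between mice, cell preparations and RNA quality. The number of arrays limits the precision. The members and lists were chosen with earlier results of these data known. Named were all members, called genes of each list or else its 2 smallest p, and the 5 genes most like Capg. Of the list entries, those without a single symbol on the array were not used here, and 1 further list is not reported here. Alternatives changed the moderation, weights, filter, normalization, probe set rule, floor and replicate block, and left out arrays. The Gapdh covariate and the joint removal of both replicates 2 were chosen after seeing the data.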

Additional observations from a re-analysis of the deposited data

How the results depend on the processing

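Over 19 alternatives the Capg difference ran from 1.95 (mean of all probe sets, which adds 1 below 5) to 3.86, and from 3.09 to 3.86 when 1 array was left out. The 9 other members gave no call in any alternative. Of the 110 such comparisons whose estimate differed from the main one, 103 kept their direction. The direction turned for Dstn with array weights (-0.010) and with the Gapdh covariate (-0.036), and for Flii without both replicates 2 (-0.15) and with the covariate (-0.14). When 1 array was left out, Flii ran from -0.018 (without control replicate 2) to 0.30, Capzb from -0.019 (without deficient replicate 1) to 0.23 and Dstn from -0.019 (without control replicate 2) to 0.17. Capzb was not tested where probe sets without _a, _s or _x in the name were preferred.

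Over all genes, 186 calls (10 higher, 176 lower) became 293 (33 higher) with array weights, 85 (0 higher, 85 lower) without a filter, 117 (6 higher, 111 lower) with averaged probe sets and 73 (3 higher, 70 lower) with the covariate. They became 27 (0 higher, 27 lower) without both replicates 2, where 2 arrays per group remain. Leaving out 1 array gave 93 to 239 calls, 3 to 36 higher and 88 to 203 lower. The 4 lower pathway calls became 2 with averaged probe sets and 2 with that preference, where the other 2 were not tested, and 1 without both replicates 2. They were 3 with the filter at 6 (Was was not tested), with values raised to 5 and with the covariate, and 4 whichever 1 array was left out. The fits that left out 1 array kept the genes that had passed the filter on all 6 arrays.

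The labels do not say whether same-numbered samples were paired. Their deviations from the group means correlated at 0.05, -0.29 and 0.00 over genes. The -0.29 is between control replicate 2 and deficient replicate 2, whose Gapdh differences are extreme in opposite directions. Arrays with different numbers gave values as large, from -0.29 (control replicate 1 with deficient replicate 3) to 0.24 (control replicate 2 with deficient replicate 3). These values cannot exclude a shared litter or processing step. With the replicate block 141 genes were called, 9 higher and 132 lower, 4 pathway genes were called lower, and the Capg difference was 3.38.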
